A study of Mus musculus with 48 samples.

Results

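The Slc25 genes encode the mitochondrial carrier family, and 38 of the 11863 genes tested in mouse kidney belonged to it by their symbol (Slc25a followed by a number). A gene was taken when both assays listed it with a median of at least 0.5 RPKM, that is, reads per kilobase of coding sequence, scaled to library size. The samples were whole kidneys of C57BL/6JRj male mice of 11-12 weeks, entrained to 12 h light and 12 h dark, taken at 12 timepoints every 2 h from ZT00 (lights on) to ZT22. At each timepoint 2 replicate pools of 2 animals were lysed in cycloheximide, and each of the 24 pools gave 1 RPF-seq library (fragments shielded by ribosomes, a measure of translation) and 1 RNA-seq library (transcript abundance), 48 in all. The ratio of the RPF-seq to the RNA-seq value of a pool is called translation efficiency (TE) below.

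Most Slc25 proteins are carriers of the inner mitochondrial membrane. They are built from repeated transmembrane units around a central binding site and usually exchange one metabolite for another, so that they link the matrix to the cytosol. Kidney tubules reabsorb solutes at a high energy cost, and their epithelium is rich in mitochondria. The members comprise carriers of ATP, ADP and phosphate, of organic acids, of amino acids, of cofactors, and of iron and glutathione, as well as several whose substrate is not settled.

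The 9 kidney markers were all present in both assays, with summed levels of 44079 to 71243 RPKM in RNA-seq and 86731 to 146279 RPKM in RPF-seq. None of the 4 adrenal markers was listed in either assay. The 6 liver markers summed to 24.6 to 55.3 RPKM in RNA-seq and 48.9 to 239 RPKM in RPF-seq. The fat markers, of which 4 of 4 were listed in RPF-seq and 2 of 4 in RNA-seq, summed to 3.35 to 17.1 RPKM in the light and 0.73 to 5.30 RPKM in the dark in RPF-seq, with RNA-seq values of at most 6.05 RPKM. No muscle marker was listed in RNA-seq and 1 of 3 in RPF-seq, at 0.43 to 1.55 RPKM. The part of these other cells in the results was not tested. The labels named no batch. The RPF-seq library of replicate 2 at ZT04 listed 162 genes at 0, against at most 23 in any other library, and no member was at 0 in any library. Relative depth ran from 0.60 to 2.04 in RNA-seq and 0.70 to 1.58 in RPF-seq, and its median was higher in the light than in the dark (1.14 against 0.81 in RNA-seq and 1.18 against 0.91 in RPF-seq).

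The family spanned a wide range of levels. Mean RNA-seq levels ran from 3.496 RPKM for Slc25a24 to 569 RPKM for Slc25a3, and mean RPF-seq levels from 3.35 RPKM for Slc25a14 to 781 RPKM for Slc25a3. The median member stood at 42.3 RPKM in RNA-seq and 30.7 RPKM in RPF-seq, against 16.5 and 13.7 RPKM for all genes tested. These are tissue levels, and the cell types that hold each carrier were not separated. Summed over the members, RNA-seq gave 3607 to 4318 RPKM per library and RPF-seq 3303 to 4082 RPKM. The lowest sums were those of replicate 2 at ZT04 in RNA-seq and at ZT02 in RPF-seq. The highest were those of replicate 1 at ZT14 in RNA-seq and at ZT16 in RPF-seq. A rhythm of the sums was not tested.

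The carriers of the phosphorylation machinery stood at the top. Slc25a3, the phosphate carrier, had 569 ± 38.2 RPKM in RNA-seq and 781 ± 80.9 RPKM in RPF-seq (SD, n = 24). Slc25a5 and Slc25a4, both ADP/ATP carriers, followed in RPF-seq with 624 ± 33.2 and 481 ± 51.3 RPKM (SD, n = 24), and in every one of the 24 RPF-seq libraries the order was Slc25a3, Slc25a5, Slc25a4. Together these genes made up 33.2 to 40.8% of the summed RNA-seq level of the family and 47.4 to 55.3% of its RPF-seq level. In RNA-seq the order was less clear, since Slc25a3 was above Slc25a5 in 21 of 24 libraries and Slc25a5 above Slc25a39, a carrier linked to glutathione import, in only 13 of 24. The transcript of Slc25a5 shared 86.2% of its 30-base stretches with transcripts of 13 other annotated genes, most of them with Gm5560, so its level depends on how such reads were assigned. It shared none with Slc25a4. Slc25a3 shared 11.1% with other genes.

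The dicarboxylate carrier Slc25a10 came next among the carriers with settled substrates, at 283 ± 47.5 RPKM in RNA-seq and 316 ± 42.0 RPKM in RPF-seq (SD, n = 24). Its 24 libraries did not overlap in RPF-seq with those of Slc25a11, the 2-oxoglutarate/malate carrier next in that order, and did not overlap in RNA-seq with those of Slc25a51, the NAD carrier. The neighbours below overlapped: Slc25a30, Slc25a15, Slc25a11, Slc25a16, Slc25a13, Slc25a1 and Slc25a17 all had mean RNA-seq levels between 102 and 129 RPKM, and adjacent genes in this stretch exchanged order in 2 or more libraries. A gap without overlap followed between Slc25a17 and Slc25a36 (102 against 68.3 RPKM).

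The lowest levels were those of Slc25a24, Slc25a29, Slc25a14, Slc25a40 and Slc25a35, with mean RNA-seq levels of 3.496, 3.854, 4.890, 8.655 and 8.998 RPKM. Slc25a29, a carrier of basic amino acids, rested on 23 to 146 reads per RNA-seq library, and Slc25a14, a carrier related to uncoupling proteins, on 39 to 119 reads per RPF-seq library. These were the thinnest members of the RNA-seq and the RPF-seq data, whereas Slc25a3 had a median of 11383 and 21224 reads. The lowest medians inside the 0.5 RPKM limit were 3.49, 3.79 and 4.96 RPKM in RNA-seq (Slc25a24, Slc25a29 and Slc25a14) and 3.30, 3.87 and 3.99 RPKM in RPF-seq (Slc25a14, Slc25a24 and Slc25a37), so the limit itself divided no close neighbours. Slc25a27 and Slc25a47 were left out because they were listed in RNA-seq only, at medians of 0.83 and 0.84 RPKM. Slc25a2, Slc25a18, Slc25a31, Slc25a41, Slc25a43, Slc25a52 and Slc25a53 were not analysed here.

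**Figure D1:**
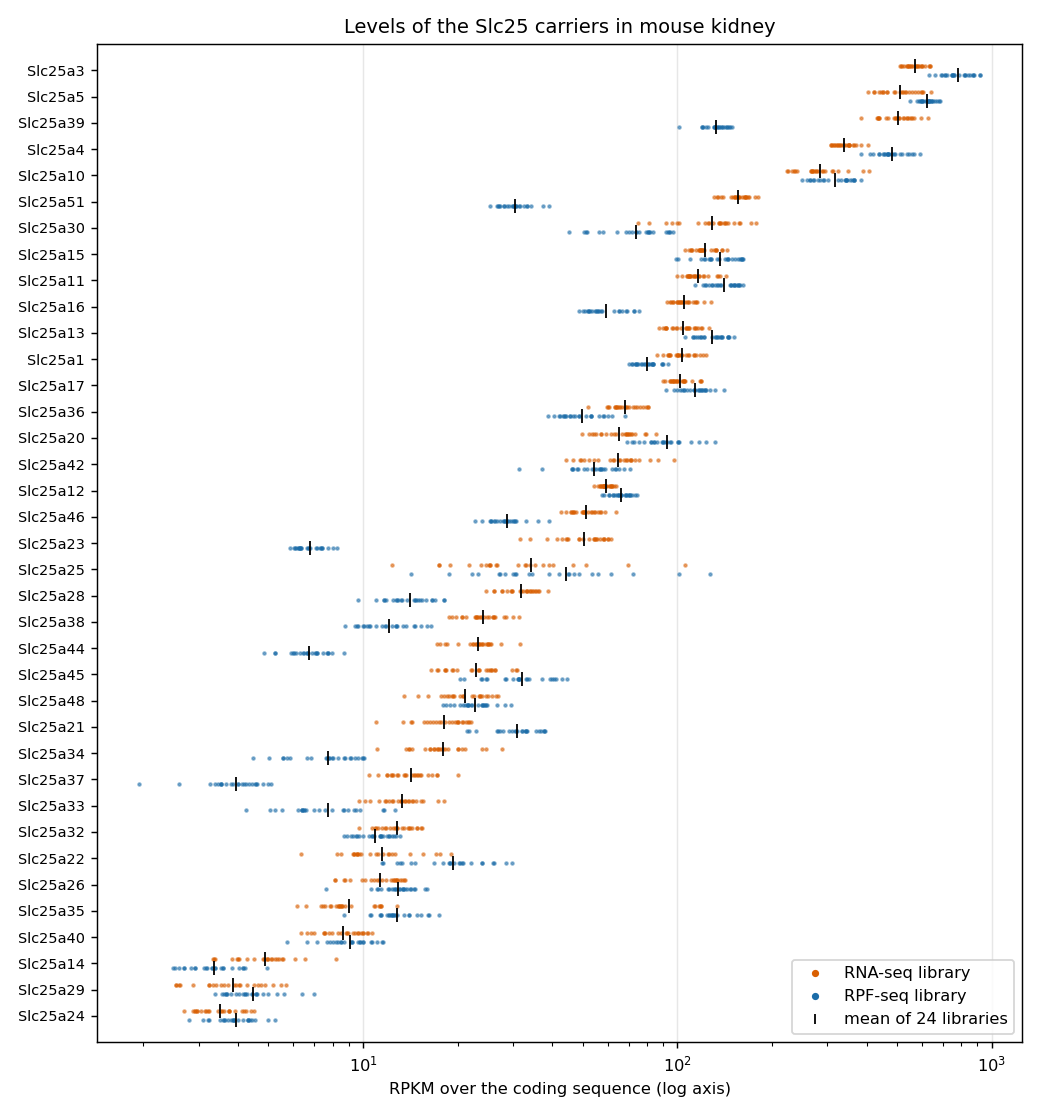
RPKM over the coding sequence of the members (log axis), with 1 point per library and a bar at the mean of 24 libraries, RNA-seq in orange and RPF-seq in blue. Genes are ordered by mean RNA-seq level, from Slc25a24 at 3.496 to Slc25a3 at 569 RPKM, and Slc25a23, Slc25a51, Slc25a44, Slc25a37 and Slc25a39 have RPF-seq points far to the left of their RNA-seq points.

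Translation relative to the transcript differed widely between members, from 0.145 to 1.81 times the median gene. TE was centred on the median gene of its pool, whose TE lay between 0.925 and 0.965, and a gene was called high or low when it lay more than 1.5-fold from that gene (limma treat, Benjamini-Hochberg adjusted p under 0.05). Of the 38 members 2 were called high, where 15.8% of all genes tested were, and 13 were called low, where 22.6% of all genes tested were. The median member had 1.12 times the TE of the median gene.

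Both high members move dicarboxylates or amino acids. Slc25a21, an oxodicarboxylate carrier of lysine and tryptophan breakdown, had a TE of 1.73 ± 0.209 (SD, n = 24 pools; lowest 1.37, highest 2.42), which is 1.81 times that of the median gene (adjusted p = 1.2e-07). Slc25a22, a glutamate carrier, had a TE of 1.72 ± 0.414 (SD, n = 24 pools) and 1.76 times the median gene (adjusted p = 0.0019). Its call was not reached without replicate 2. Slc25a35, Slc25a4 and Slc25a20 followed with 1.51, 1.49 and 1.48 times the median gene and were not called.

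Slc25a23, a calcium-regulated carrier that exchanges ATP-Mg for phosphate, had the lowest TE of the family. Its TE was 0.139 ± 0.030 (SD, n = 24 pools; lowest 0.104, highest 0.216), which is 0.145 times that of the median gene and lower than all but 0.92% of the genes tested. It had 50.3 ± 8.44 RPKM in RNA-seq and 6.78 ± 0.669 RPKM in RPF-seq, on 560 to 2310 and 141 to 324 reads per library. Slc25a51, which carries NAD, had 0.207 times the TE of the median gene, (13.9% of its stretches shared with other genes), with 155 ± 13.1 RPKM in RNA-seq and 30.5 ± 3.31 RPKM in RPF-seq. Slc25a39 had 0.281 times, Slc25a37, which imports iron for haem synthesis, 0.297 times and Slc25a44, a carrier of branched-chain amino acids, 0.310 times. In each of these members all 24 RNA-seq libraries were above all 24 RPF-seq libraries. Exons of genes on the opposite strand covered 10.1% of the coding bases of Slc25a23, 20.7% of those of Slc25a37, 29.3% of Slc25a33 and 22.6% of Slc25a46 among the low members, and 16.7% of Slc25a25 (by Naif1) and 9.41% of Slc25a10 among the others. Whether reads were counted by strand is not given in the sources used here, so reads of these stretches may not be told apart. Other low members, between 0.456 and 0.604 times, included Slc25a34, Slc25a28, Slc25a38, Slc25a16, Slc25a46, Slc25a33 and Slc25a30. Among these the call of Slc25a33 was not reached without either replicate, that of Slc25a30 without replicate 1 and that of Slc25a46 without replicate 2, at log2 TE levels of -0.68 to -0.78 relative to the median gene.

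By class, 3 of the 4 iron and glutathione carriers were called low, 4 of the 10 carriers of cofactors, carnitine and pyrimidine nucleotides, and 2 of the 7 amino acid carriers. None of the 3 phosphate and ADP/ATP carriers was called, and their TE lay between 1.3001 and 1.490 times the median gene. The 4 carriers of di-, tri- and keto-acids lay between 0.818 (Slc25a1, the citrate carrier) and 1.81 times.

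**Figure D2:**
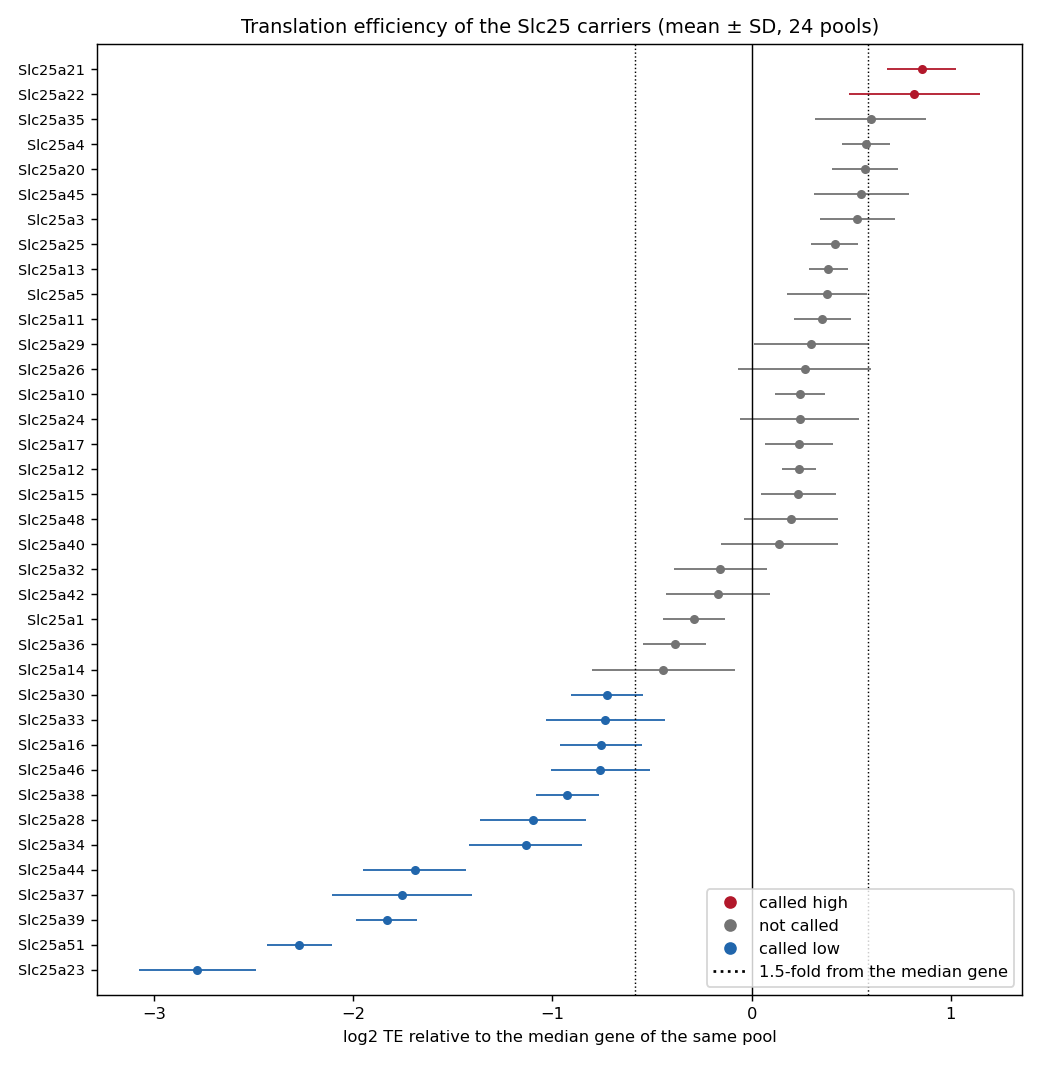
Log2 TE of the members relative to the median gene of the same pool, as mean ± SD over 24 pools, with genes called high in red, low in blue and others in grey. The low members reach from 0.604 times the median gene (Slc25a30) down to 0.145 times (Slc25a23), and the dotted lines mark 1.5-fold from the median gene.

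Initiation starts at the first codon, and the bases around it are shown for the 5 members of lowest TE and the 5 of highest TE to let their start sites be compared. Each stretch holds 12 bases before the start codon and 3 after it (transcript sequence of GENCODE vM21, GRCm38, one transcript per gene), and the capitals mark the start codon.
Slc25a23: tgggcgggcgccATGcgg
Slc25a51: gccggaagcaccATGatg
Slc25a39: tgaaattccaagATGgat
Slc25a37: gcggggccgcggATGgag
Slc25a44: tctccgggcacaATGgag
Slc25a21: ctggtcgcgaagATGtcg
Slc25a22: cacttggtgtaaATGgct
Slc25a35: tctacctttaccATGgac
Slc25a4: ccggctttcagcATGggg
Slc25a20: agaagactgagcATGgca
A purine at position -3 together with a G directly after the start codon was present in 5 of the 13 low members, in 14 of the 23 members not called and in neither high member. Over all genes with a transcript model these shares were 40.0%, 47.5% and 46.8%. An ATG upstream of the start codon within the 5' leader was present in 10 of the 13 low members, in 11 of the 23 not called and in 1 of the 2 high ones, against 72.6%, 44.2% and 33.0% of all genes with those calls. Slc25a23 itself had none, and Slc25a51 had 3. The coding sequences of the members were short, with a median of 951 bases against 1374 for all genes.

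Paralogue pairs differed in TE to unequal degrees. Of 10 paralogue pairs all 10 had an adjusted p under 0.05 (sign-flip permutation test over 24 pools, two-sided, Benjamini-Hochberg over the 10 pairs), 7 of them at 1.4e-05, which follows from the smallest p that 100000 resamples can give. With 24 pools even a log2 difference of -0.15 (Slc25a12 against Slc25a13) passed. Pairs of other genes were not tested, so the count says nothing particular of relatives, and the sizes are given below. Slc25a23 had a log2 TE 3.02 below that of Slc25a24 and 3.20 below that of Slc25a25, which are also ATP-Mg/phosphate carriers, and was lower in 24 of 24 pools in both pairs. Its transcript was 14.1 times as abundant as that of Slc25a24 (median ratio of 24 libraries), while its RPF-seq level was 1.66 times as high. The log2 TE of Slc25a39 was 1.97 below that of Slc25a40, in 24 of 24 pools, with a median RNA-seq ratio of 57.1 and a median RPF-seq ratio of 14.2. Slc25a40 shared 40.0% of its 30-base stretches with the annotated gene Gm5066, so its values are uncertain.

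The log2 TE of Slc25a34 was 1.73 below that of Slc25a35, and the order of their levels turned with it, since Slc25a34 was 1.99 times as high in RNA-seq and 0.609 times as high in RPF-seq. Between the mitoferrins, Slc25a28 had a log2 TE 0.66 above that of Slc25a37, in 23 of 24 pools. Slc25a37 shared 20.7% of its stretches with other genes. Slc25a33 lay 0.35 below Slc25a36, both carriers of pyrimidine nucleotides, in 21 of 24 pools, and Slc25a36 shared 78.9% of its stretches with Gm13217. The smallest differences were those of the aspartate/glutamate carriers, where Slc25a12 lay 0.15 below Slc25a13 in 23 of 24 pools, and of Slc25a24 and Slc25a25, where the difference was -0.17 (adjusted p = 0.021, permutation test). The ADP/ATP carriers differed by 0.20 (Slc25a4 higher in 18 of 24 pools, adjusted p = 0.00067, permutation test). Their order was reversed in both pools at ZT18, where TE was 1.42 and 1.51 for Slc25a4 against 1.55 and 1.56 for Slc25a5. It was also reversed in both pools at ZT20. Slc25a5 shared 86.2% of its stretches with other genes. Slc25a14 lay 0.28 above Slc25a30 in 17 of 24 pools (adjusted p = 0.0075, permutation test). The pairs Slc25a24 with Slc25a25 and Slc25a14 with Slc25a30 missed the threshold in 1 of the replicate series.

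Over the day the family held few rhythms of large size. A gene was called rhythmic when the 24-h component had a false discovery rate (FDR) under 0.05 over all genes (limma, moderated F test) and a fitted peak-to-trough fold of at least 1.5. In RNA-seq 5 of the 38 members were called (13.2%), where 10.2% of all genes tested were: Slc25a22, Slc25a25, Slc25a30, Slc25a34 and Slc25a42. In RPF-seq 5 of the 38 were called (13.2%), where 7.58% of all genes were: Slc25a22, Slc25a25, Slc25a33, Slc25a34 and Slc25a45. In TE 2 of the 38 were called (5.26%), where 3.74% of all genes were: Slc25a26 and Slc25a33. The shares of the members were thus above those of all genes in each case, on only 5, 5 and 2 called members. A 12-level time factor, which follows any shape over the day, called 12 of the 38 members in each assay (31.6%), while over all genes the RNA-seq share was 19.3% and the RPF-seq share 9.54%. None of these differences from all genes was tested. In whole kidney, fewer cells of a type and less RNA per cell cannot be told apart.

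Without the fold minimum, the 24-h component passed the FDR in 27 members in RNA-seq (71.1%) and in 23 in RPF-seq (60.5%), against 48.6% and 30.9% of all genes, and in 8 members in TE, against 17.1%. The members were more highly expressed than the median gene, and the part of their level in these shares was not tested. The median fitted fold was 1.23 in RNA-seq and 1.27 in RPF-seq for the members, against 1.205 and 1.18 for all genes. Of the members with a component in RPF-seq, 13 of 23 peaked between ZT12 and ZT18 (56.5%), where 24.8% of the 3663 genes with such a component did. In RNA-seq the share in that window was 11 of 27 (40.7%) against 16.9%. The difference between members and other genes was not tested.

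**Figure D3:**
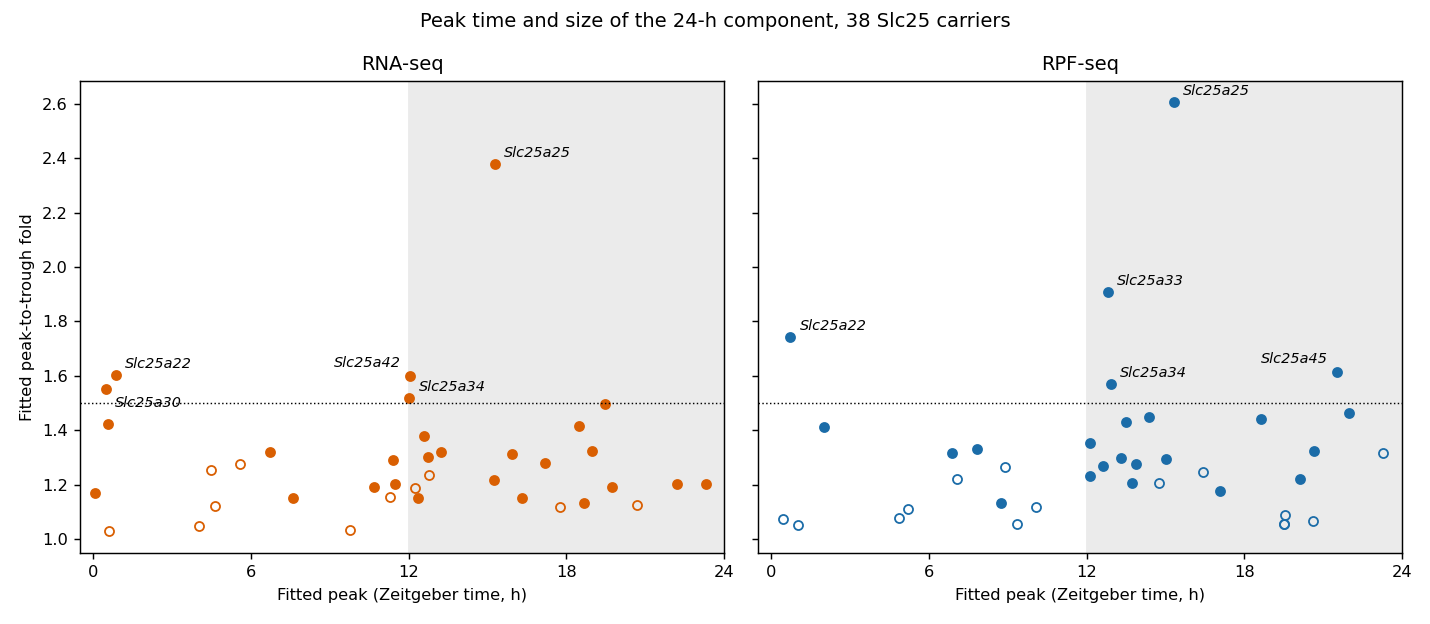
Fitted peak time (h) against fitted peak-to-trough fold of the 24-h component for the 38 members, RNA-seq on the left and RPF-seq on the right, with filled points for an FDR under 0.05, grey for the dark phase and a dotted line at 1.5-fold. Slc25a25 stands highest in both panels at 2.38- and 2.60-fold, and 13 of the 23 filled RPF-seq points lie between ZT12 and ZT18.

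Slc25a25 had the largest rhythm of the members in both assays. It encodes a calcium-regulated ATP-Mg/phosphate carrier and lies at chr2:32414487-32451445 on the minus strand (GRCm38). RNA-seq gave 106 and 69.5 RPKM in the pools at ZT14 and 51.3 and 46.4 RPKM at ZT16, and the other timepoints lay between 12.4 and 40.1 RPKM. RPF-seq gave 127 and 101 RPKM at ZT14, 72.2 and 61.4 RPKM at ZT16, and 14.2 to 55.8 RPKM at the other timepoints. The pools at ZT14 were thus above those of every other timepoint in both assays. The rise was short: the timepoint mean in RNA-seq was lowest at ZT04 with 20.96 RPKM and reached 87.8 RPKM at ZT14.

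The fitted fold of Slc25a25 was 2.38 in RNA-seq (log2 1.25 ± 0.27, SE; FDR 0.0016) with a peak at 15.3 h, and 2.60 in RPF-seq (log2 1.38 ± 0.29, SE; FDR 0.0030) with a peak also at 15.3 h. The RPF-seq peak differed from the RNA-seq peak by 0.04 ± 1.15 h (SE, assays taken as independent although they share pools). TE stayed between 1.08 and 1.45 in all pools, and its fitted fold was 1.10 (FDR 0.39). The replicates disagreed most at ZT06, where they gave 12.4 and 32.7 RPKM in RNA-seq and 14.2 and 46.9 RPKM in RPF-seq. Without replicate 1 the folds were 1.98 in RNA-seq and 2.15 in RPF-seq and the calls were lost (FDR 0.18 and 0.27).

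RefSeq gave promoters for 30 of the 38 members, 39 in all, each with 250 bases before and 50 after a start site. They were searched on both strands for the E-box CACGTG, the E'-box CACGTT, the D-box TTATGNAA, the ROR element TAGGTCA and the cAMP response element TGACGTCA, motifs known from circadian and activity-dependent promoters. The cAMP response element was found in promoters of Slc25a25 and Slc25a36, which is 2 of the 39, against 1.79% of all 32851 promoters. The Slc25a25 match lay at -150 relative to an internal start, one of 3 that RefSeq gives for the gene. The promoters at its other starts held none of the motifs and are not printed. Slc25a25 was chosen for its largest rhythm, and its promoter with the match is shown. It lies at chr2:32424017-32424316 on the minus strand (GRCm38.p6), and the capitals mark the motif.
Slc25a25 promoter: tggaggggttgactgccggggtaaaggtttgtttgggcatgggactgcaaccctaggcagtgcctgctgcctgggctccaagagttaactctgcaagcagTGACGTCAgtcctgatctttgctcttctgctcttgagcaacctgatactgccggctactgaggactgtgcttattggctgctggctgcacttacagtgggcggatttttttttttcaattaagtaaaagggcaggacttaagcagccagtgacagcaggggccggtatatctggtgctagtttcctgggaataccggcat
The E-box was found in 7 member promoters (17.9%), of Slc25a1, Slc25a13, Slc25a14, Slc25a15, Slc25a33 and Slc25a36, against 7.15% of all promoters, and the overlapping promoters of Slc25a14 shared 1 site. Of the 8 members called rhythmic in any assay, only Slc25a33 held an E-box among the promoters given. The E'-box was found in Slc25a28 and Slc25a30 (5.13% against 4.68%), the D-box in Slc25a21 (2.56% against 3.38%) and the ROR element in none (against 2.61%). No match overlapped another motif. The matches are letters in these windows and were not tied to the measurements.

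The cofactor and nucleotide carriers held 3 of the 8 rhythmic members. Slc25a33, a pyrimidine nucleotide carrier at chr4:149744036-149774277, was called in RPF-seq and in TE. RPF-seq was highest at ZT12 with 12.6 and 11.6 RPKM and lowest at ZT04 with 5.06 and 4.23 RPKM, and the pools of these timepoints did not overlap. RNA-seq moved less, from 11.7 and 9.71 RPKM at ZT00 to 13.6 and 18.1 RPKM at ZT08. The fitted fold was 1.91 in RPF-seq (FDR 1.3e-05, peak 12.8 h) and 1.29 in RNA-seq (FDR 0.014, peak 11.4 h). TE was 0.814 and 0.784 at ZT12 against 0.482 and 0.320 at ZT04, with a fitted fold of 1.52 (FDR 0.0065, peak 13.7 h). The lowest of these TE values came from the RPF-seq library of replicate 2 at ZT04, and without it the TE fold was 1.44 and the call was lost. The RPF-seq call held under all 13 alternatives tried, with folds of 1.78 to 2.58. The promoter of Slc25a33 at chr4:149774218-149774517 on the minus strand (GRCm38.p6) is shown with its E-box, at -8 relative to the start, in capitals.
Slc25a33 promoter: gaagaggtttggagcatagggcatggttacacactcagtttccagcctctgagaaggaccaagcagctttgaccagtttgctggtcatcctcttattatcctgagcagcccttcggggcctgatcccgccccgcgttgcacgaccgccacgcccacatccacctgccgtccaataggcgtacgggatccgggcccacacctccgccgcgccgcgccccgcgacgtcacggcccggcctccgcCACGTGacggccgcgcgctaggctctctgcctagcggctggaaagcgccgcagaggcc

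Slc25a26, the carrier of S-adenosylmethionine at chr6:94500331-94604672, was called in TE only. The fitted peak of RNA-seq fell in the light and that of RPF-seq, which did not pass the FDR, in the dark. The RNA-seq pools gave 13.6 and 12.8 RPKM at ZT10 and 8.14 and 9.92 RPKM at ZT16, while the RPF-seq pools gave 14.6 and 15.7 RPKM at ZT18 and 10.6 and 7.62 RPKM at ZT04. The fitted RNA-seq fold was 1.32 with a peak at 6.72 h (FDR 0.012) and the RPF-seq fold 1.25 with a peak at 16.4 h (FDR 0.067). TE rose from 0.958 and 0.612 at ZT04 to 1.13 and 1.83 at ZT20, with a fitted fold of 1.61 (FDR 0.0045, peak 17.7 h). The 0.612 came from replicate 2 at ZT04, whose RPF-seq library listed 162 genes at 0. The 1.83 came from replicate 2 at ZT20, the shallowest pool in both assays (relative depth 0.60 in RNA-seq and 0.70 in RPF-seq). The call was kept without the ZT04 library of replicate 2. With 1 replicate left out the TE fold of Slc25a26 was 1.85 (without replicate 1) and 1.43 (without replicate 2), and that of Slc25a33 was 1.57 and 1.63. None of these passed the FDR (0.074 to 0.23), and of all 11863 genes 0 and 2 were called in TE with 12 pools, so the lost calls say little of these members.

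Slc25a42, which imports coenzyme A and lies at chr8:70184340-70212305, was rhythmic in RNA-seq. Its pools gave 97.5 and 73.1 RPKM at ZT14, 86.4 and 75.2 RPKM at ZT12, and 49.1 and 50.3 RPKM at ZT22. The fitted fold was 1.60 (FDR 7.4e-06, peak 12.0 h), and the call held under all 12 alternatives. In RPF-seq the pools ran from 48.1 and 31.3 RPKM at ZT00 to 70.8 and 56.6 RPKM at ZT18, and the fitted fold of 1.43 (FDR 0.0026, peak 13.5 h) stayed under the fold minimum. The fold of TE was 1.21 (FDR 0.31), so a difference between the assays was not shown. Among the other members of the class, Slc25a20, the carnitine/acylcarnitine carrier, had an RNA-seq fold of 1.31 and an RPF-seq fold of 1.45, with peaks at 15.9 and 14.4 h. In all, 8 of the 10 members of this class had a 24-h component in each assay.

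Among the 7 amino acid carriers Slc25a22 was the one called. It carries glutamate and lies at chr7:141429744-141437892. RNA-seq gave 19.0 and 14.1 RPKM at ZT00, 15.5 and 17.1 RPKM at ZT22 and 9.28 and 6.33 RPKM at ZT12. RPF-seq gave 25.98 and 18.8 RPKM at ZT00, 29.7 and 23.8 RPKM at ZT06 and 14.6 and 11.5 RPKM at ZT14. High values thus lay at ZT22, ZT00 and ZT06, and low values around lights off. The stretch from ZT22 to ZT06 was not high throughout, since RNA-seq gave 12.0 and 12.6 RPKM at ZT02 and 12.1 and 8.28 RPKM at ZT04. The fitted folds were 1.60 in RNA-seq (FDR 0.0034, peak 0.86 h) and 1.74 in RPF-seq (FDR 0.0012, peak 0.72 h), with a TE fold of 1.09 (FDR 0.86). Without replicate 1 the RPF-seq fold was 1.66 and the call was lost. Slc25a13 and Slc25a15, the ornithine carrier, had components in both assays with folds of 1.204 to 1.325, and Slc25a38, the glycine carrier of haem synthesis, folds of 1.32 and 1.44.

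Of both carriers related to uncoupling proteins, Slc25a30 was called in RNA-seq. Slc25a30, also known as the kidney mitochondrial carrier protein, lies at chr14:75760117-75787037. Its RNA-seq level was 178 and 144 RPKM at ZT04 and 74.9 and 81.3 RPKM at ZT14, with a second low of 96.0 and 91.9 RPKM at ZT08. RPF-seq values at these timepoints were 51.6 and 51.2 RPKM at ZT08 and 45.3 and 56.2 RPKM at ZT14, against 81.8 and 94.1 RPKM at ZT16. The fitted fold was 1.55 in RNA-seq (FDR 0.0010, peak 0.46 h) and 1.32 in RPF-seq (FDR 0.13), and the TE fold was 1.22 (FDR 0.094). Without replicate 1 the RNA-seq fold was 1.49 and the call was lost. Slc25a14 lay just under the fold minimum in RNA-seq at 1.498 (FDR 0.0024, peak 19.5 h).

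Of the carriers with no settled substrate, Slc25a34 (chr4:141618824-141623821) was called in both assays. RNA-seq gave 24.6 and 20.6 RPKM at ZT14 and 14.3 and 14.02 RPKM at ZT02. RPF-seq gave 9.95 and 9.96 RPKM at ZT12 and 5.85 and 4.47 RPKM at ZT02. The fitted folds were 1.52 (FDR 0.00043, peak 12.0 h) and 1.57 (FDR 0.0027, peak 12.9 h), both close to the minimum, and without replicate 2 they were 1.399 and 1.497 and neither call was reached. The RPF-seq call was also lost without replicate 1 at a fold of 1.68 (FDR 0.059), both with a pseudocount of 1 (folds 1.49 and 1.49), and the RNA-seq call with a 12-level time factor at a fold of 1.62 (FDR 0.054). Slc25a45 (chr19:5877808-5885878) was called in RPF-seq, where the pools gave 39.8 and 44.5 RPKM at ZT20 and 23.8 and 20.4 RPKM at ZT12. Its fold was 1.61 in RPF-seq (FDR 0.00026, peak 21.5 h) and 1.42 in RNA-seq (FDR 0.0032, peak 18.5 h). RPF-seq of Slc25a45 thus peaked 3.02 ± 1.08 h (SE, assays taken as independent) after RNA-seq. Its TE had a component that passed the FDR (0.0055) at a fold of 1.41, with values of 1.77 and 1.70 at ZT02 and 0.918 and 1.32 at ZT14. Without replicate 1 the RPF-seq fold of Slc25a45 was again 1.61 but the FDR was 0.097, so the call was lost.

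**Figure D4:**
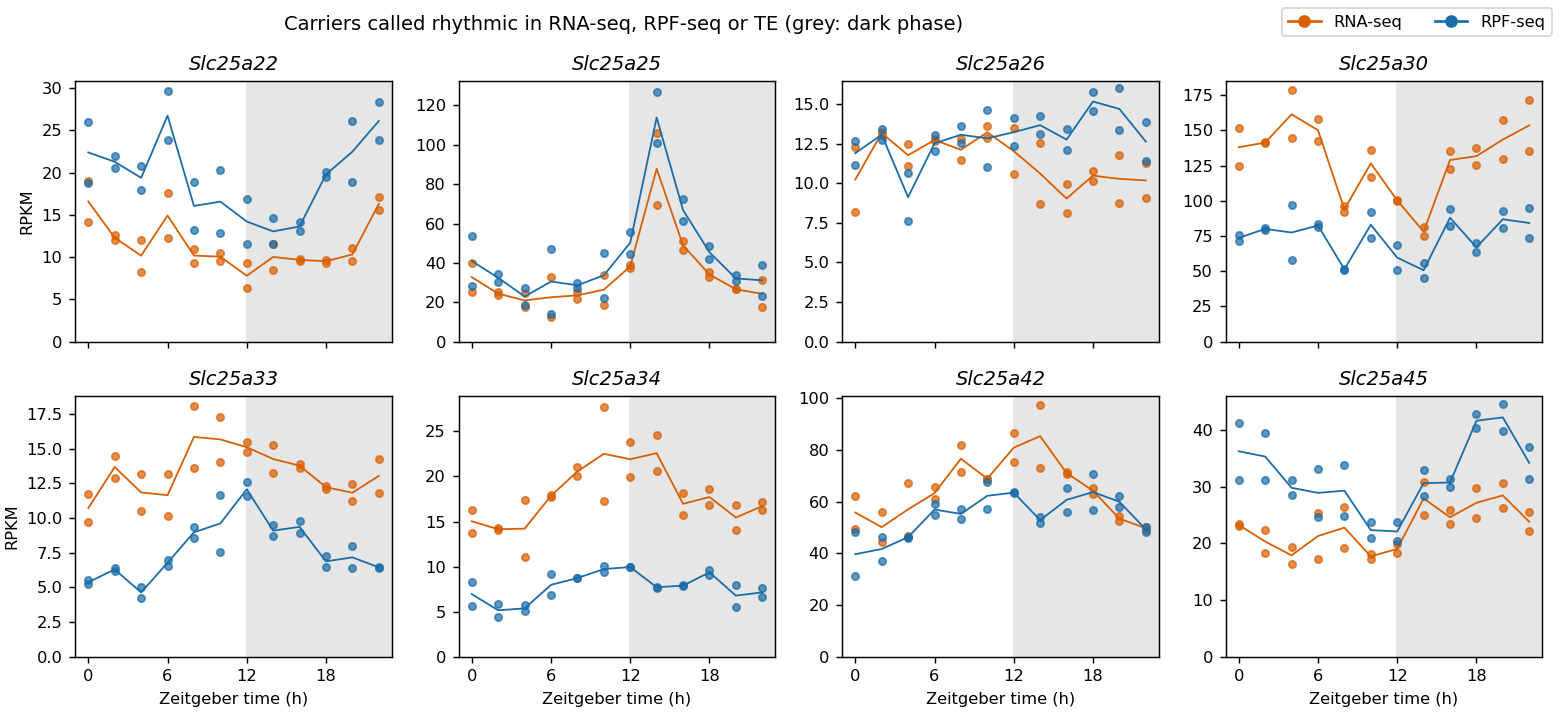
RPKM against Zeitgeber time (h) for the 8 members called rhythmic in at least 1 of RNA-seq (orange), RPF-seq (blue) and TE, with 1 point per pool and a line through the timepoint means, the dark phase in grey. Slc25a25 rises sharply to 106 and 69.5 RPKM in RNA-seq at ZT14, and Slc25a22 is lowest around lights off.

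**Figure D5:**
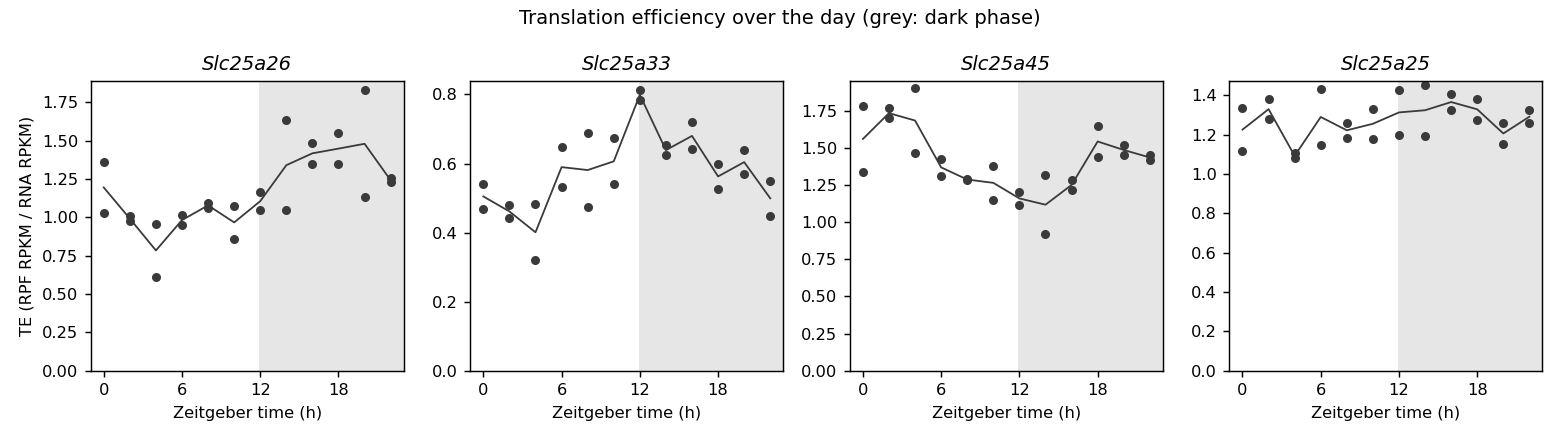
TE against Zeitgeber time (h) for both members called in TE (Slc25a26 and Slc25a33), for Slc25a45 and for Slc25a25, with 1 point per pool and a line through the timepoint means. TE of Slc25a25 stays between 1.08 and 1.45, while that of Slc25a33 reaches 0.814 and 0.784 at ZT12.

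The remaining classes held no rhythmic member. Among the phosphate and ADP/ATP carriers, Slc25a4 had a component in each assay (RNA-seq fold 1.15, RPF-seq fold 1.28), Slc25a3 one in RPF-seq at 1.18, and Slc25a5 none. All 4 carriers of organic acids had a component in RNA-seq, and 3 of them also in RPF-seq. The largest folds of these were those of Slc25a21 (RNA-seq 1.42, RPF-seq 1.41), and Slc25a10 had 1.38 and 1.27 with both peaks at 12.6 h. Of the iron and glutathione carriers, Slc25a37, Slc25a28 and Slc25a39 had a component in RNA-seq at folds of at most 1.32. The RNA-seq level of Slc25a37 was highest in both libraries at ZT16, with 20.0 and 17.2 RPKM. In these libraries the summed erythroid markers (3 of 6 listed) were also highest, at 325 and 294 RPKM against a median of 83.7 RPKM. By level among the 24 libraries, Slc25a38 ranked 8 and 5 there and Slc25a39 11 and 15. In RPF-seq the markers were highest in replicate 1 at ZT16 and replicate 2 at ZT00. There Slc25a37 ranked 7 and 17, Slc25a38 1 and 11, and Slc25a39 6 and 15. The part of the erythroid markers in the level of Slc25a37 was not tested. No component in either assay was found for Slc25a5, Slc25a23, Slc25a24, Slc25a29, Slc25a32, Slc25a40 and Slc25a48.

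Of the 19 members with a component in both assays, 12 had peaks within 2 h of each other (63.2%), against 67.6% of 2445 genes tested with components in both. In 6 of the 19 RPF-seq peaked more than 2 h before RNA-seq, and in 1, Slc25a45, more than 2 h after. Among the 2445 genes, 498 had such a lead and 293 such a lag, and the difference from the members was not tested. The largest lead was that of Slc25a17, a carrier of cofactors in peroxisomes. Its RPF-seq peaked 4.91 ± 1.52 h (SE, assays taken as independent) before its RNA-seq, at folds of 1.21 and 1.13.

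Among family genes under other symbols, Ucp2, an uncoupling protein, was rhythmic in RNA-seq (fold 1.73, FDR 0.0012, peak 9.55 h) and in RPF-seq (fold 1.53, FDR 0.0022, peak 8.25 h), and its TE was called low at 0.315 times the median gene. Mtch1 and Mtch2, outer membrane relatives, were not called. Of 14 components of the machinery that imports the carriers, none was rhythmic in RNA-seq or RPF-seq and 1 (Timm8b) was rhythmic in TE at a fold of 1.52 (FDR 0.031). Of 16 other transporters of the mitochondrial membranes none was rhythmic in RNA-seq, RPF-seq or TE. With 10.2%, 7.58% and 3.74% of all genes called in RNA-seq, RPF-seq and TE, lists of this size would hold few calls at those shares, and nothing is read from these counts. Of the import components 3 were called high in TE (Tomm7, Timm9 and Timm29) and 1 low (Tomm20), and of the other transporters 5 were called high and none low, where 15.8% of all genes were called high and 22.6% low. The high transporters included Vdac1, the main pore of the outer membrane, at 2.70 times the median gene, and Mpc1, a subunit of the pyruvate carrier, at 2.13 times.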

How the data were processed

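RPF-seq and RNA-seq were made from the same 24 kidney pools, 2 per timepoint. Per the labels and the study's methods, the authors trimmed reads with cutadapt, selected them by size, mapped them with Bowtie2 2.2.1 and TopHat2 2.0.11 (GRCm38.p2), defined expressed transcripts with Cufflinks 2.2.1 and normalised libraries by upper quantiles in edgeR. The authors deposited RPKM values per coding sequence, after leaving out genes of low expression. Upper quantile normalisation hides any change in total RNA per cell. The reads behind a value were recovered from the steps between low values. All 38 members lay on whole reads (tolerance 0.01), and reads that fit several genes were placed by the authors' mapping. A pool combines 2 animals, and p-values measure the spread between pools.

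Gene names were matched from the gene IDs (75 of 12728 unmatched in RNA-seq and 53 of 12622 in RPF-seq). Values were taken as log2(RPKM + 0.1), so folds of low genes are slightly understated. Rhythms were fitted with limma 3.58.1 in R 4.3.3 (24-h cosine and sine, moderated F with variance trend) over 11863 genes, with thresholds of 1.5 on the fold and 0.05 on the Benjamini-Hochberg FDR. TE was tested as the log2 ratio within a pool. The RNA-seq and RPF-seq libraries of the same number deviated together at all 12 timepoints (mean correlation 0.238, lowest 0.106). The SE of a peak difference took the assays as independent and did not use this pairing. TE levels used limma treat. Paralogue pairs used sign-flip permutation with 100000 resamples in Python 3.11.15. On simulated data over 11863 genes, the RNA-seq test recovered 94% of 2-fold and 73% of 1.5-fold rhythms, the RPF-seq test 92% and 68%, and the TE test 94% and 59%. Recovery here meant an FDR under 0.05 alone, without the fold minimum of 1.5. These shares are thus not those of the calls, which near 1.5-fold would be lower. The simulated noise was normal and independent between samples. Sequences come from RefSeq (GRCm38.p6) and GENCODE vM21. Motifs were chosen with the rhythms known.

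The members, gene lists, pairs and tests were chosen with earlier results of these data known. Genes were named by rule: every member called rhythmic, the 5 highest and 5 lowest in RNA-seq and in TE, those nearest the RPKM limit, and every member of a pair. Other members were named as examples of their class after their values were seen. The values of 1 member are not reported here, and it is left out of the plots by gene. Alternatives were other pseudocounts, RPKM limits, normalisation, thresholds and models, a replicate block, and leaving out a replicate or the ZT04 RPF-seq library of replicate 2.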

Additional observations from a re-analysis of the deposited data

Results flagged for a closer look

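Slc25a26 and Slc25a33 differed in their rhythm between RPF-seq and RNA-seq by the test of the TE ratio, with fitted TE folds of 1.61 for Slc25a26 (FDR 0.0045) and 1.52 for Slc25a33 (FDR 0.0065). Slc25a26 peaked at 6.72 h in RNA-seq and at 16.4 h in RPF-seq, while Slc25a33 peaked at 11.4 and 12.8 h with a larger fold in RPF-seq. With 1 replicate left out the folds were 1.85 and 1.43 for Slc25a26 and 1.57 and 1.63 for Slc25a33, and neither call was reached, in fits of 12 pools that called 0 and 2 of all 11863 genes. Both calls were also lost with the 12-level time factor, which kept all pools.

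Slc25a27 and Slc25a47 were listed in RNA-seq only and entered no comparison. Slc25a27, a carrier related to uncoupling proteins and known from brain, had a median of 0.83 RPKM (7 to 27 reads per library), and Slc25a47, a carrier known from liver, a median of 0.84 RPKM (5 to 30 reads per library). Both lay above the level of 3 reads in the shallowest library, 0.315 and 0.327 RPKM, a limit that covers counting error only. No cause was tested for these results.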

How the results depend on the processing

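The 5 RNA-seq calls among members became 12 with a 12-level time factor, the 5 RPF-seq calls became 8 with an added 12-h harmonic and 12 with the time factor, and the 2 TE calls became 1 with a pseudocount of 1, 1 without the ZT04 RPF-seq library of replicate 2 and 0 with the time factor. Leaving out 1 replicate gave 3 to 5 RNA-seq, 3 to 4 RPF-seq, 0 to 0 TE, 1 to 2 high TE and 11 to 11 low TE calls. A limit of 1.2-fold gave 11 high TE calls in place of 2 and 15 low ones in place of 13. Where limma gave 0 TE calls, 3 members (without replicate 1), 4 (without replicate 2) and 14 (time factor) had an unadjusted p under 0.05 and a fold of at least 1.5. Fewer samples remained in the first cases, and the cause was not tested otherwise. With the time factor the fold is the widest gap among 12 timepoint means, which noise alone enlarges. The share of all genes at this unadjusted threshold was not counted, so nothing is read from these counts.

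Over all genes, 1210 RNA-seq calls became 722 without replicate 1, 2291 with the time factor and 781 with a pseudocount of 1. The 899 RPF-seq calls became 370 without replicate 1 and 590 with a pseudocount of 1. The 444 TE calls became 0 without replicate 1, 2 without replicate 2, 98 with the time factor, 727 with AIC choice and 215 at an FDR under 0.01, and high and low TE calls became 3800 and 4087 at 1.2-fold. The replicate numbers did not pair samples across timepoints (mean correlation 0.029 in RNA-seq and 0.020 in RPF-seq), and the replicate block left 5, 5 and 2 rhythm calls and 2 and 13 TE calls. Of 356 recomputed values of single members and pairs, 328 kept direction and side of the threshold, 28 lost the call and none turned. Depth limits the members with under 100 reads per library, such as Slc25a29 and Slc25a14.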

Other observations

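The differences between replicate pools of Slc25a25 and Slc25a42 went the same way in RNA-seq and RPF-seq at 12 of 12 timepoints. Among all genes tested 42 (0.354%) did so, and the median gene did at 7. The largest ratio between the replicates of a timepoint was 2.63 in RNA-seq and 3.28 in RPF-seq for Slc25a25, and 1.44 and 1.53 for Slc25a42. These genes were chosen after their values were seen.

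The 12-level time factor, by which 19.3% of all genes were called in RNA-seq and 9.54% in RPF-seq, called 7 members in RPF-seq that the 24-h fit did not: Slc25a20, Slc25a21, Slc25a30, Slc25a35, Slc25a36, Slc25a38 and Slc25a42. In RNA-seq it called 8 such members: Slc25a10, Slc25a20, Slc25a21, Slc25a37, Slc25a38, Slc25a44, Slc25a45 and Slc25a48.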
